A study of Mus musculus with 2 samples.

Results

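Mitochondrial protein import is the route by which nearly all proteins of the organelle, made in the cytosol, reach their place inside it. The TOM complex of the outer membrane recognises them and passes them through its channel. Proteins with an N-terminal presequence go on through the TIM23 complex of the inner membrane, are pulled in by a motor on the matrix side and are cut by presequence peptidases. Carrier proteins are escorted by small Tim chaperones to the TIM22 complex, beta-barrel proteins are inserted by the sorting and assembly machinery, and cysteine-rich proteins are trapped by an oxidative relay in the intermembrane space. In steroid-making cells this route also brings in enzymes such as Cyp11a1 and Cyp11b1, which work inside mitochondria.

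The genes described were all protein-coding genes of the annotation whose symbol begins with Timm or Tomm followed by a digit, together with Pmpca, Pmpcb, Mipep, Pam16, Grpel1, Grpel2, Samm50, Chchd4 and Gfer. No expression value was used to choose them. These 34 genes fall into 9 groups by role. Reads were found on 33 of them, in both libraries each, out of 17707 annotated genes with reads, 14616 of them protein-coding. The exception was Timm8a2, with 0 reads in either library.

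RNA came from adrenal glands of female B6CASTF1/J mice, F1 hybrids of C57BL/6J and CAST/EiJ, aged 18 to 20 months. The series holds 1 group of 2 long-read libraries, called replicates 1 and 2, each from 1 µg of total RNA, with no treatment and no other age. The libraries have separate biosample entries but share a donor entry, so whether they come from separate animals is not settled, and p-values then measure only the difference between these libraries. Replicate 1 held 1412947 reads on annotated genes and replicate 2 held 933963. Adrenal cortex markers were high in both, with 6 of 6 detected and sums of 73150 CPM (counts per 1000000 annotated-gene reads) in replicate 1 and 72865 CPM in replicate 2, and all 5 chromaffin markers of the medulla were detected, at 11991 and 9406 CPM. Single cortex markers still differed: Cyp11b1 had 20398 CPM in replicate 1 and 13534 CPM in replicate 2, Star had 8352 and 12540 CPM, and Nr5a1 had 1031 and 1605 CPM. Of markers of tissue around the gland, skeletal muscle markers summed to 431 CPM in replicate 1 (5 of 5 detected) and 1.07 CPM in replicate 2 (1 of 5, with Acta1 and Ckm at 0 reads), and brown fat markers to 3471 and 1993 CPM, with the gap in Ucp1 (1687 and 602 CPM) and Elovl3 (614 and 188 CPM) and Cidea at 637 CPM in both.

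The small Tim chaperones carry a sequence feature that shows on the coding strand, a pair of motifs in which 3 residues separate the cysteines. The stretches that span it are shown because they define a family whose members differed widely in level. They are read from the GENCODE M21 transcripts (mm10, 5′ to 3′), and capitals mark the 4 cysteine codons.
Timm8a1: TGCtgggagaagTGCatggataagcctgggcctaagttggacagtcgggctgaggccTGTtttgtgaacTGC
Timm8a2: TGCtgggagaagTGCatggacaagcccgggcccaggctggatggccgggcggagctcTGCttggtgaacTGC
Timm8b: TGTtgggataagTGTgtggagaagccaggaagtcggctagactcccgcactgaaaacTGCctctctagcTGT
Timm9: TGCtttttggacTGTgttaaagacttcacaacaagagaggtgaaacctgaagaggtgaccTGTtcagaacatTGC
Timm10: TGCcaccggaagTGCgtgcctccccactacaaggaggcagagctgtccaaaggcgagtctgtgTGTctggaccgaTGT
Timm10b: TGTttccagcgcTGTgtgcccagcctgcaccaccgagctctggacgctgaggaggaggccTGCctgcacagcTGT
Timm13: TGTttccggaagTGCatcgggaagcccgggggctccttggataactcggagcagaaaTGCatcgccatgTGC
The spacer between the pair was 14 codons in Timm8a1, Timm8a2, Timm8b and Timm13, 15 in Timm9 and Timm10b, and 16 in Timm10.

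Together the import genes took 5585 reads in replicate 1, or 0.395% of annotated-gene reads (exact 95% Clopper-Pearson interval 0.385 to 0.406%), and 3798 reads in replicate 2, or 0.407% (0.394 to 0.420%). The mean was 0.401 ± 0.00805% (SD, n = 2). Intervals cover counting error only. The median of the 33 import genes with reads stood at 86.3 CPM in replicate 1 and 88.9 CPM in replicate 2, against 14.9 and 15.0 CPM for the median protein-coding gene with reads. Each long read was counted as 1 transcript molecule, so these levels were not divided by transcript length. Some reads covered only part of a transcript, and the effect of transcript length on the levels was not tested. In tissue RNA, fewer cells of a type and less RNA per cell cannot be told apart.

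Genes of the TOM complex held the largest part of the import reads among the 9 groups, 30.9% in replicate 1 (interval 29.7 to 32.1%) and 34.6% in replicate 2 (33.1 to 36.2%). TOM was also the group with the most genes, 9 of the 33 with reads. Tomm40 encodes the channel and was the most abundant import gene by its mean, with 509 reads (360 CPM) in replicate 1 and 294 reads (315 CPM) in replicate 2. Tomm20, a receptor for presequences, had 340 reads (241 CPM) and 382 reads (409 CPM). Replicate 2 was thus above replicate 1 for Tomm20 and below it for Tomm40. The receptor gene Tomm70a, which serves carrier proteins, had 156 and 155 CPM in replicates 1 and 2, and the central receptor gene Tomm22 had 86.3 and 87.8 CPM, so each lay at nearly the same level in both libraries. Of the small subunits around the channel, Tomm6 had 137 and 186 CPM. Tomm7 reached 120 and 153 CPM, and Tomm5 69.4 and 55.7 CPM. The order Tomm6, Tomm7, Tomm5 was the same in both libraries. The TOM relatives Tomm40l and Tomm20l were far below Tomm40 and Tomm20, at 42.5 and 41.8 CPM and at 7.79 and 5.35 CPM. Tomm34, a cytosolic partner of import, had 33 reads (23.4 CPM) in replicate 1 and 23 reads (24.6 CPM) in replicate 2.

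Samm50, the channel of the sorting and assembly machinery, was among the abundant members, with 441 reads (312 CPM) in replicate 1 and 225 reads (241 CPM) in replicate 2. The relay of the intermembrane space stood lower: the oxidoreductase gene Chchd4 (Mia40) had 65.1 and 73.9 CPM, and Gfer, the sulfhydryl oxidase that reoxidises it, had 45.3 and 64.2 CPM in replicates 1 and 2.

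Levels within the small Tim family were uneven. Timm13 was highest in both libraries, with 235 reads (166 CPM) in replicate 1 and 185 reads (198 CPM) in replicate 2, followed by Timm8b with 99.8 and 127 CPM. Timm13 pairs with Timm8 proteins in one kind of chaperone complex, while Timm9 and Timm10 form the other. Timm9 had 36 and 30 reads (25.5 and 32.1 CPM), and Timm10 had 30 and 23 reads (21.2 and 24.6 CPM). Both lay below every value of Timm13 and Timm8b. Timm10b, which attaches the chaperones to TIM22, had 62.3 and 48.2 CPM, and Timm8a1, the mouse counterpart of the gene mutated in human deafness-dystonia syndrome, had 47.4 and 42.8 CPM. Its relative Timm8a2 went unread, and at this depth that limits its level to 2.12 CPM in replicate 1 and 3.21 CPM in replicate 2, the worth of 3 reads.

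The inner membrane translocase groups were of unlike size, 2 genes in TIM22 and 5 in TIM23, so their sums are not compared. TIM22 genes summed to 149 CPM in replicate 1 and 147 CPM in replicate 2: the channel gene Timm22 had 67.9 and 55.7 CPM, and its partner Timm29 had 81.4 and 91.0 CPM. TIM23 genes summed to 616 and 559 CPM. The channel gene Timm23 led them, with 302 reads (214 CPM) and 199 reads (213 CPM), followed by the presequence receptor gene Timm50 with 178 and 162 CPM. The lowest of the group was Timm21, which links TIM23 with TOM and with the respiratory chain, at 51.0 and 40.7 CPM.

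Among motor genes Grpel1, the nucleotide exchange factor of mitochondrial Hsp70, stood out with 441 reads (312 CPM) in replicate 1 and 302 reads (323 CPM) in replicate 2. The tether gene Timm44 had 126 and 106 CPM, and the J-like regulator gene Pam16 had 53.8 and 71.7 CPM. Grpel2, the second exchange factor, had 24.1 and 33.2 CPM. Presequence peptidases were well represented: Pmpcb, the catalytic subunit of the processing peptidase, had 372 reads (263 CPM) and 234 reads (251 CPM). Its partner gene Pmpca had 297 reads (210 CPM) and 180 reads (193 CPM), and Mipep, which trims some presequences further, had 108 and 97.4 CPM.

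Ordered by mean level, neighbouring members mostly overlapped: in 9 places of the order both values of a gene lay above both values of the gene next below it. Those genes were Pmpcb, Timm23, Tomm70a, Timm17a, Timm29, Timm8a1, Tomm40l, Timm10 and Tomm20l, the last of these against Timm8a2 at 0. No neighbours among the top genes Tomm40, Tomm20, Grpel1, Samm50 and Pmpcb separated in this way.

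**Figure D1:**
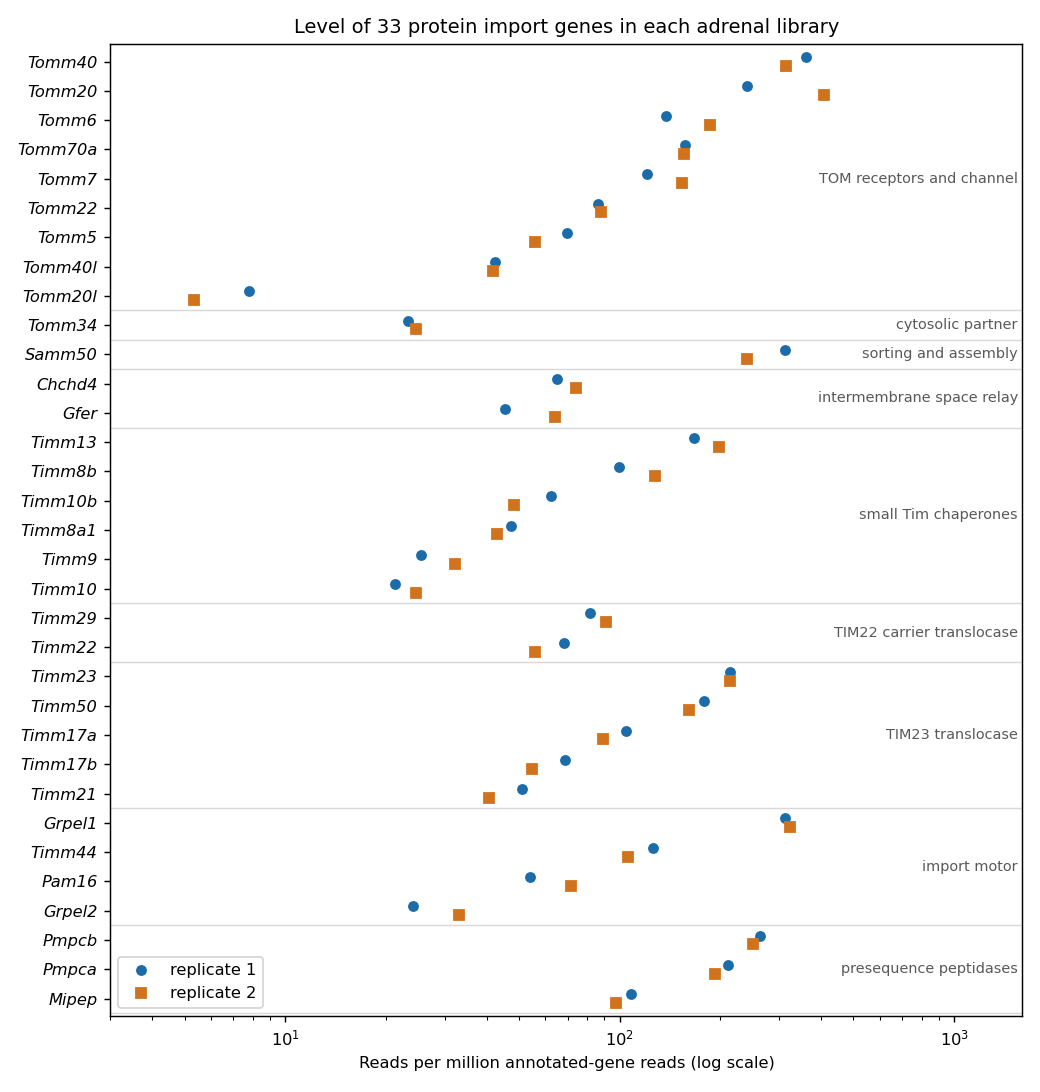
Level of each of the 33 import genes with reads, in CPM on a log axis, with replicate 1 as circles and replicate 2 as squares and genes grouped by role. Most pairs of points lie close together, Tomm20 shows the widest gap among abundant genes (241 and 409 CPM), and Tomm20l is lowest at 7.79 and 5.35 CPM.

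Paralog pairs were read unequally. Reads of Tomm20 made up 96.9% of the Tomm20 and Tomm20l reads in replicate 1 and 98.7% in replicate 2, and those of Tomm40 made up 89.5 and 88.3% of the Tomm40 and Tomm40l reads. Grpel1 held 92.8 and 90.7% of the reads it shared with Grpel2. All 67 and 40 reads of the Timm8a pair fell on Timm8a1 (lower bounds 94.6% in replicate 1 and 91.2% in replicate 2), although the coding sequences of the pair are 77.3% identical, the highest of the 6 pairs. A closer balance was seen for the TIM23 channel partners: Timm17a had 148 and 83 reads and Timm17b, which is X-linked, had 97 and 51 reads. Timm17a thus held 60.4% (interval 54.0 to 66.6%) and 61.9% (53.2 to 70.2%) of the pair. Pmpca, whose product works in a dimer with that of Pmpcb, held 44.4 and 43.5% of the reads of that pair. Coding identity over the other 5 pairs ranged from 60.8 to 70.8%.

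Some counts may be shared with near-identical loci, so those genes are uncertain to that extent. At 90% identity or more over at least 200 aligned bases, 7 processed pseudogenes matched 5 members on the same strand, and they had 0 reads in either library. Transcribed loci on the same strand had few reads: Gm9803, identical to Pam16 over 534 bases, had 10 reads in replicate 1 and 5 in replicate 2. Gm10273 (Timm23) had 4 and 5 reads, and Gm9797 (Timm8a1) had 5 and 8. Locus Gm45799, which overlaps Timm10b on its strand, had 11 and 7 reads.

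Between the libraries, 2 of the 33 import genes passed an exact two-sided binomial test of their reads after TMM scaling (Benjamini-Hochberg adjusted p under 0.05 over 11068 genes with at least 10 reads), against 12.4% of all genes tested. Samm50 was higher in replicate 1, as were 6.21% of all genes tested, and Tomm20 was higher in replicate 2, as were 6.2%. For Tomm20 (chr8:126930667-126945844, minus strand, mm10), the ratio of replicate 1 over replicate 2 was 0.602 (interval 0.518 to 0.698), a log2 ratio of -0.73, with an adjusted p of 7.95e-10 by the exact binomial test. For Samm50 (chr15:84192241-84217267, plus strand), it was 1.32 (interval 1.13 to 1.56), a log2 ratio of 0.40, with an adjusted p of 0.00788 by the same exact test. A transcript that overlaps Samm50 on its strand, Gm49513, had 8 reads in replicate 1 and 3 in replicate 2. The cortex, muscle and fat markers named above also differed between the libraries, and their part in either result was not tested.

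These tests cover counting error alone. With the common dispersion of the libraries, edgeR's exact test called 0 import genes, against 0.244% of all genes. At an unadjusted p under 0.05 by edgeR's test there were 0, against 4.65%. That dispersion was estimated from the same 2 libraries taken as 1 group. It thus already holds the differences tested, and a lack of calls shows little. Counting only reads on annotated transcripts, the call for Samm50 was lost (adjusted p = 0.0639 by the exact binomial test). Scaling to spike-in totals shifted the median log2 ratio of all genes from -0.00 to 0.32. It gave 14 of 33 import genes higher in replicate 1, against 20.0% of all genes, with Tomm20 still higher in replicate 2. Import genes had more reads than most genes, and the 14 of 33 and the 20.0% were not compared at matched depth.

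Of the 33 members, 32 lay within 1.5-fold between the libraries, and Tomm20 did not. Over all genes tested 70.3% lay within that range. Members were read more deeply: 32 of the 33 had at least 50 reads, against 6491 of the 11068 genes tested. Ratios of low counts spread more widely, and these shares were not compared at matched depth. The median log2 ratio was 0.04 for import genes and -0.00 for all genes, with 19 members above 0 and 14 below. By length of the main annotated transcript, members under 800 nt had a median log2 ratio of -0.31 (7 genes), against -0.28 over all 684 tested genes of that length. Members of 800 to 2000 nt had a median of 0.04 (11 genes) against 0.09, and those over 2000 nt a median of 0.16 (15 genes) against -0.00. The 7 short members went both ways: Tomm6 (-0.41), Pam16 (-0.38), Timm8b (-0.32), Timm9 (-0.31) and Timm10 (-0.19) had log2 ratios below 0, while Tomm5 (0.34) and Tomm20l (0.50) had log2 ratios above it, and none passed the exact test.

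**Figure D2:**
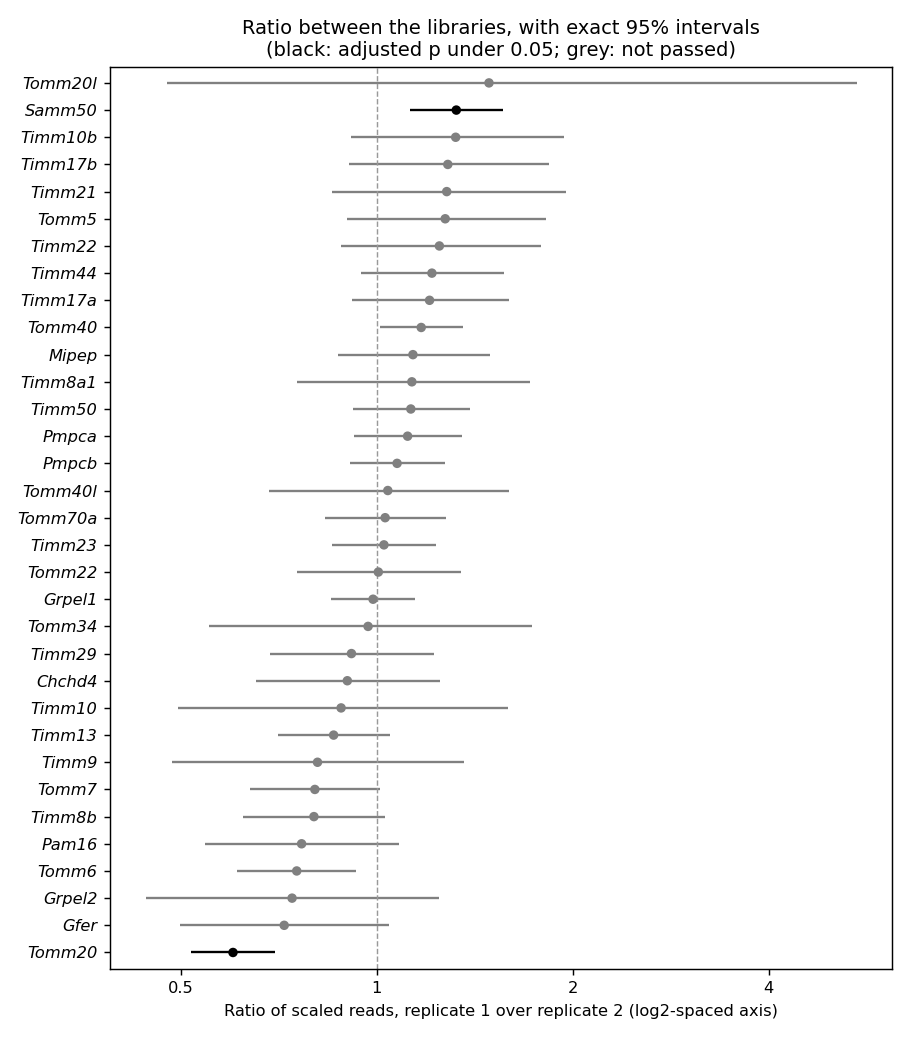
Ratio of TMM-scaled reads, replicate 1 over replicate 2, for the 33 import genes on a log2-spaced axis, with exact 95% intervals. Samm50 (1.32) and Tomm20 (0.602) are drawn in black as the genes past the test, and the interval of Tomm20l is the widest, from 0.476 to 5.46.

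Most import genes were read as a single dominant isoform. Of 32 members with at least 20 reads in each library, all had an annotated protein-coding transcript as their main isoform, and in 21 it held over 80% of reads in both libraries. The median share was 87.9%, against 72.3% over all 6413 genes measured. Import genes had shorter main transcripts (median 1790 nt, against 2626 nt over all genes tested), and these shares were not compared by length. Timm8a1-201 took every read of its gene, and Tomm20-201 took 95.6% in replicate 1 and 97.9% in replicate 2. Grpel1-201 took 95.7 and 96.0%, and Timm23-201 took 95.0 and 96.5%. The lowest shares were those of Timm10b, Gfer, Timm17b, Tomm34, Timm9 and Chchd4.

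Timm10b was the only member whose main isoform fell under 50% in a library. Timm10b-203, which ends in a long last exon, had 47 reads in replicate 1 and 22 in replicate 2, or 53.4% (interval 42.5 to 64.1%) and 48.9% (33.7 to 64.2%). Timm10b-201 encodes the same 300 coding bases but splices its 3′ UTR, and had 18 and 5 reads. In Timm10b-211, with 10 and 7 reads, the last splice falls inside the coding sequence, which is 297 bases long, and in Timm10b-208, with 8 and 4 reads, an intron is kept and the coding sequence is 153 bases. The junction of Timm10b-211 is shown because it changes the end of the protein (lower case, exon 3; capitals, exon 4).
Timm10b-211: cctcggccgcgccagCTGTCAAAAAGAATT

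Several other genes had a second isoform in both libraries. Gfer-201 had 35 and 33 reads (54.7 and 55.0%), while Gfer-204, annotated as a target of nonsense-mediated decay, had 15 and 15 reads (23.4 and 25.0%). Both Gfer transcripts encode the same 594 coding bases, and Gfer-204 has an additional intron in its 3′ UTR. For Tomm40, Tomm40-202 had 417 and 219 reads (81.9 and 74.5%) and Tomm40-201 had 62 and 53 reads (12.2 and 18.0%), with the same 1083 coding bases. They differ in the leader, where Tomm40-201 keeps an intron. Timm17b-203, a retained-intron transcript with no coding sequence, had 12 reads in each library beside 67 and 29 reads of Timm17b-201. Timm9 was divided among transcripts with the same 267 coding bases and other leader exons: Timm9-207 had 22 and 20 reads, Timm9-201 had 5 and 4, and Timm9-202 had 4 and 2. Tomm20l, below the minimum for this comparison, had 7 of 11 and 4 of 5 reads on Tomm20l-203, a retained-intron transcript. On its annotated protein-coding transcripts it had 0 reads in either library.

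With at least 5 reads over both libraries, 4 more genes had an annotated isoform with another coding sequence. Tomm20-202 had 3 reads in replicate 1 and 2 in replicate 2, with 306 coding bases against 435 in Tomm20-201, and Tomm5-202 had 3 reads in each, with 183 coding bases against 153 in Tomm5-204. Pmpca-202, with 11 reads in replicate 1 and 4 in replicate 2, ends in an extended exon 11 and has 1323 coding bases against 1572 in Pmpca-201 (251 and 139 reads). Timm13-204, with 8 and 10 reads, has 240 coding bases against 285 in Timm13-201 (213 and 166 reads). It leaves exon 1 earlier, at coding base 75 and not at base 120, so the bases between them are absent. The cysteine stretch shown above starts at coding base 136 of Timm13-201 and lies downstream of the junction in both. The junctions are shown to compare the donor sides (lower case, exon 1; capitals, exon 2, which starts at the same base).
Timm13-204: gccattatggagcagAGAATGACGGACAAG
Timm13-201: caggagctgctccagAGAATGACGGACAAG

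**Figure D3:**
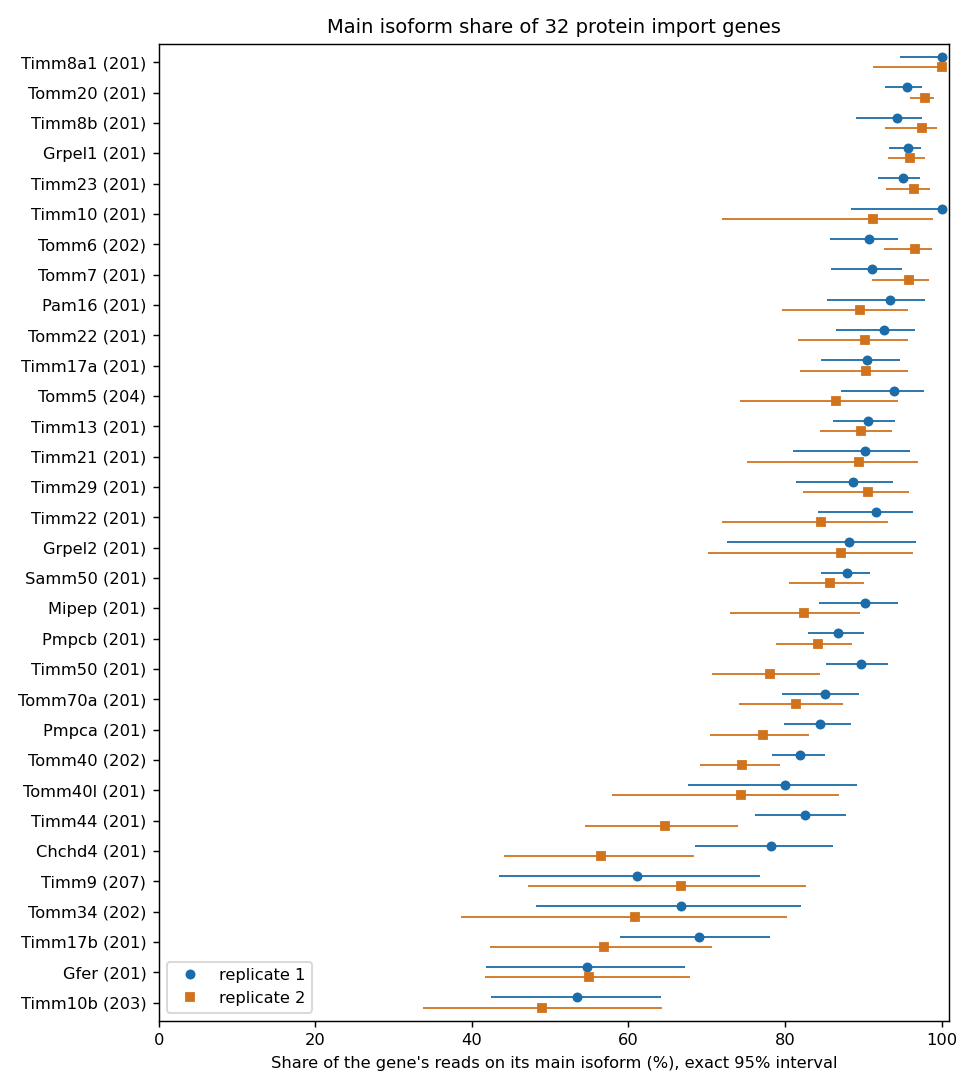
Share of each gene's reads on its main isoform in replicate 1 (circles) and replicate 2 (squares), with exact 95% Clopper-Pearson intervals, for 32 import genes in order of the mean share. Timm8a1 is at 100% in both libraries and Timm10b is lowest at 53.4 and 48.9%, and the gaps for Timm44 and Chchd4 are the widest.

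No import gene passed a two-sided Fisher exact test of its main isoform share between the libraries (0 of 32), against 2.21% of the 6413 genes. At an unadjusted p under 0.05 there were 5 of 32, against 12.0% of all genes, and a chi-square test over all isoforms called 1, Timm44, against 2.93%. Timm44-201 held 147 of 178 reads in replicate 1 (82.6%, interval 76.2 to 87.8%) and 64 of 99 in replicate 2 (64.6%, 54.4 to 74.0%), with an adjusted p of 0.0505 by Fisher's exact test. Timm50-201 held 89.7 and 78.1% (adjusted p = 0.0696 by Fisher's exact test). For Chchd4, Chchd4-201 held 72 of 92 and 39 of 69 reads, or 78.3 and 56.5% (adjusted p = 0.102 by Fisher's exact test). Most other Chchd4 reads were on unannotated single-exon models within the gene, 15 in replicate 1 and 28 in replicate 2. Over all protein-coding genes other than import genes, such genomic models were 3.40% of reads in replicate 1 and 5.71% in replicate 2; whether that difference plays a part in these shares was not tested.

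Most reads of import genes lay on annotated transcripts. Reads whose splice junctions all match an annotated transcript were 91.3% of those on import genes in replicate 1, with an interval of 90.5 to 92.0%, and 89.8% in replicate 2 (88.8 to 90.8%), a mean of 90.6 ± 1.05% (SD, n = 2), against 77.1 and 73.1%, a mean of 75.1 ± 2.83%, for all other protein-coding genes. Incomplete splice matches, which hold a run of annotated junctions but not all, or no junction in some single-exon models, made up 4.59 ± 0.136% against 12.9 ± 0.643%. New combinations of annotated splice sites made up 1.04 ± 0.311% against 4.30 ± 0.391%, and models with a new splice site 1.78 ± 0.0939% against 3.23 ± 0.160%. Genomic models, which follow no annotated splicing, made up 2.03 ± 0.698% against 4.55 ± 1.64%. Single-exon models were not always labelled alike in the libraries. Those of Timm29 were incomplete matches in replicate 1 (13 reads) and genomic in replicate 2 (8 reads). No test was made, as reads of a library share their source. The median main transcript was 1790 nt for import genes and 2626 nt for all genes tested, so the shares were also taken by length. Under 800 nt, import genes stood at 95.2 and 96.6% and other genes at 86.8 and 85.8% in replicates 1 and 2. Between 800 and 2000 nt the shares were 91.3 and 89.3% for import genes against 82.9 and 78.9%, and above 2000 nt 90.5 and 88.5% against 74.8 and 70.7%. In each length class both libraries had the higher share in import genes.

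**Figure D4:**
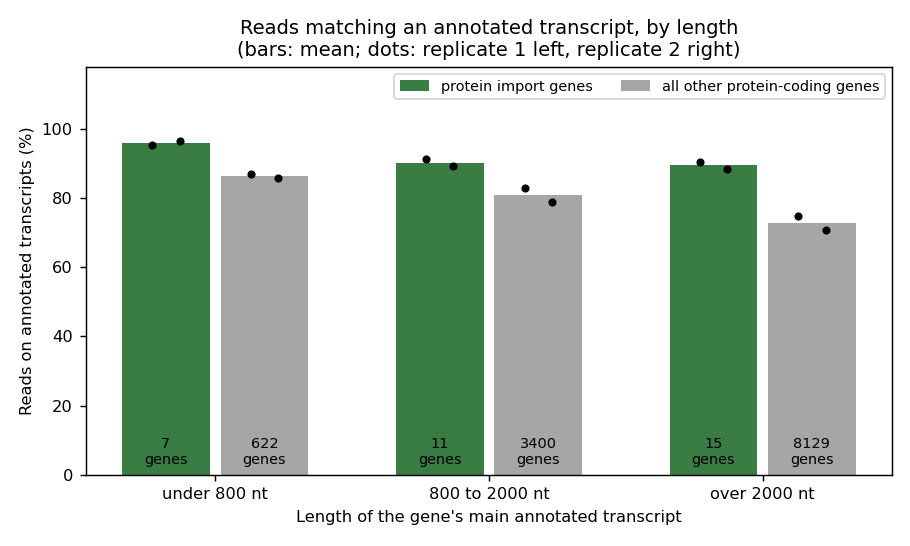
Percent of reads on annotated transcripts by length of the gene's main annotated transcript, for import genes (green, left) and all other protein-coding genes (grey, right), with bars at the mean and dots for replicate 1 (left) and replicate 2 (right). Import genes are higher in each class, from 95.2 and 96.6% against 86.8 and 85.8% under 800 nt to 90.5 and 88.5% against 74.8 and 70.7% above 2000 nt.

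New spliced isoforms were few. With at least 5 reads in a library there were 3, and each had the same introns in the other library. In Pmpcb, 5 reads in replicate 1 and 4 in replicate 2 used an acceptor 17 bases before the usual start of exon 12 of 13 (intron chr5:21756676-21756797). That intron is itself annotated for Pmpcb, and only its combination with the other introns is new. The earlier acceptor lengthens the coding part of exon 12 by a number of bases that is not a multiple of 3. In Timm50, 6 and 3 reads lacked exon 4, of 22 bases, and had exon 3 extended by 22 bases (intron chr7:28308413-28310273), so the spliced length was the same. Whether this is a true splice form, or bases of exon 4 aligned beside exon 3, was not tested. In Tomm40, 5 and 3 reads extended exon 1 by 11 bases within the leader (intron chr7:19715260-19715346). Beside 372 and 234 reads on Pmpcb, 252 and 151 on Timm50 and 509 and 294 on Tomm40, each was a small part of its gene.

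Promoter windows of 300 bases, 250 before and 50 after the RefSeq start (GRCm38.p6), were found for 30 of the 34 genes and searched on both strands. The NRF-1 core, written as GCGCA, 1 base of any kind and GCGC, for a factor known to drive nuclear genes of mitochondria, was present in 4 of 30 (13.3%): Chchd4, Pam16, Timm8b and Tomm20. It was present in 12.3% of 8264 other tested protein-coding genes and in 5.19% of all 27025 genes in the table. The ETS core CCGGAAG, the type bound by GABP (NRF-2), was present in 12 of 30 (40.0%), against 21.4% of the other tested genes and 9.93% of all. Among these 12 were Timm23, Tomm22, Tomm70a, Pmpca, Pmpcb and Grpel1, and Timm8b held both motifs. Timm8a2, with 0 reads and so not tested, was also among the 12, while the other genes compared were all tested. A GC box GGGCGG was present in 53.3%, against 71.4% of the other tested genes. CCAAT was present in 33.3% against 42.8%, TATAAA in 6.67% against 8.23%, and CACGTG in 16.7% against 12.1%. No core searched contains another, CACGTG reads the same on both strands, and a match is a description, not a shown site. The upstream windows of Tomm20, the member that differed most between the libraries, and of Pmpcb are shown as examples of each core in capitals, close to the start (chr8:126945922-126946171, minus strand, and chr5:21736910-21737159, plus strand).
Tomm20: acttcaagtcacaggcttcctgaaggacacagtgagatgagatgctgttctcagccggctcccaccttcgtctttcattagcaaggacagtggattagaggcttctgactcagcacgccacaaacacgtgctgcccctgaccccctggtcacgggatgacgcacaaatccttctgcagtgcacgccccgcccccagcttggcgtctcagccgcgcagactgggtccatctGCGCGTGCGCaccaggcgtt
Pmpcb: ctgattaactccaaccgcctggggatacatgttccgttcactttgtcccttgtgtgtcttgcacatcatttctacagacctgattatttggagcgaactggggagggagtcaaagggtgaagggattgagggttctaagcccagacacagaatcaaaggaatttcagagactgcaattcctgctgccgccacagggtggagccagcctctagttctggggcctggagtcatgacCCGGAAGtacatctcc
The NRF-1 core of Tomm20 lies at bases -20 to -11 from the RefSeq start and the ETS core of Pmpcb at -16 to -10. The GENCODE gene spans begin at other bases, chr8:126945844 for Tomm20 (minus strand) and chr5:21737141 for Pmpcb. The ETS core of Pmpcb therefore lies inside the GENCODE span. The windows are reference sequences of C57BL/6J, and the CAST/EiJ allele of the hybrids may differ.

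Other genes of mitochondrial import, its chaperones and the cristae scaffold were taken from a list of 30, of which 29 had reads and 28 were tested. The chaperones were far above the translocase genes: cytosolic Hspa8 stood at 4069 ± 481 CPM, the matrix chaperonin genes Hspd1 and Hspe1 at 3677 ± 571 and 850 ± 212 CPM, and Hspa9, the mitochondrial Hsp70 that the motor uses, at 1233 ± 109 CPM (SD, n = 2 each). By the same exact binomial test, 6 were higher in replicate 1 and 5 were higher in replicate 2, against 6.21 and 6.2% of all genes. This test calls smaller ratios where reads are many. At a minimum of 50 reads it called 10.4 and 9.78% of all genes, and the list was not compared at matched depth. Higher in replicate 1 were Hspd1 (ratio of replicate 1 over replicate 2 1.27), Hspa9 (1.16), the outer membrane insertase relative Mtch1 (1.22), the cristae scaffold gene Chchd3 (1.62), the sorting and assembly gene Mtx2 (1.41) and the protease gene Oma1 (2.25). Higher in replicate 2 were Hspa8 (0.865), Hspe1 (0.717), the kinase gene Pink1 (0.773), whose product is degraded when import works, Minos1 (0.803) and Romo1 (0.736). Mtx2 had 200 reads in replicate 1 and 96 in replicate 2, while Mtx1, of the same machinery, had 88 and 62 reads, a ratio of 0.959, and did not pass. None of these 28 genes passed edgeR's exact test (adjusted p = 1 for each), which has the limit given above for its dispersion. The inner membrane peptidase gene Immp2l had 0 reads in either library.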

How the data were processed

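The authors deposited, for each library, a transcript annotation and raw counts of long reads per transcript model, with no normalization. Per the file headers, reads were assigned to GENCODE M21 on mm10 in tables with TALON's field names. Which aligner, version and read filters were used is not given in the sources used here.

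In replicate 1, 1478362 reads lay on 130376 models, and in replicate 2, 1007541 reads lay on 118745. Counts were summed per annotated gene, without spike-ins (18340 and 15552 reads) and without unannotated gene models (3.22 and 5.85% of mouse reads). With 1 group no contrast between groups exists, so the libraries were compared by an exact binomial test (TMM factors 0.989 and 1.01, prior 0.5 reads for log2 ratios, genes with at least 10 reads) and main isoform shares by Fisher's exact test (at least 20 reads in each library), both with Benjamini-Hochberg adjustment at 0.05. Annotated isoforms were matched by identifier and others by intron chain, with the unannotated single-exon models of a gene taken as 1 isoform. New isoforms needed 5 reads.

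The genes, lists, tests and alternatives were chosen with earlier results of these data known. Every member is named. Full statistics go to members past a test, and isoform structures to members whose main isoform is under 50% in a library or that have a new isoform in both. Other structures, and Immp2l, were picked after seeing their values. Of the other import genes, the 4 highest and those past the test are named. Alternatives covered scaling, read minimums, model classes, edgeR's exact test with the common dispersion (coefficient of variation 21.5%) and leaving out a library. Only the binomial and Fisher tests were tried on simulated counts, which held counting error and no further spread between libraries. Look-alike loci were found with minimap2 2.31, and coding identity came from alignments in Biopython 1.88. Tests ran in Python 3.11.15 with scipy 1.17.1, pandas 2.3.3 and numpy 2.4.6, scaling in R 4.3.3 with edgeR 4.0.16 and DESeq2 1.42.0, and plots in matplotlib 3.10.9.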

Additional observations from a re-analysis of the deposited data

Results flagged for a closer look

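Reads outside the annotated genes stood out at Tomm34, where gene models new to the annotation on the opposite strand held 15 reads in replicate 1 and 16 reads in replicate 2, above the 3 reads that a count of 0 allows. Tomm34 itself had 33 and 23 reads, and the annotated gene Stk4, which overlaps it by 848 bases on that strand, had 11 and 5.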

How the results depend on the processing

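No paired analysis was possible because the series holds 1 group. The count of import genes higher in replicate 2, 1 as reported, became 2 with DESeq2 size factors, with total gene reads and with a minimum of 50 reads (Tomm6 added each time; 6.52, 6.77 and 9.78% of all genes), 3 with annotated transcripts only (Tomm6 and Tomm7 added; 6.66%) and 0 with edgeR's exact test (0.108%). The count higher in replicate 1, 1 as reported, became 14 with spike-in totals (20.0% of all genes, not matched for depth). It became 0 with annotated transcripts only (5.07%) and with edgeR (0.136%). Spike-in totals shifted the log2 ratio of every gene by the same amount. Grpel1 thus went to 0.31 from -0.02 and passed the exact binomial test. Other members, such as Timm13 (to 0.11 from -0.22), changed sign without passing. The import share of reads, 0.395 to 0.407% leaving out either library, was 0.483% over annotated transcripts only and 0.383% of all mouse reads. Main isoform shares differed in 2 genes (Timm44 and Timm50) of 24 with a minimum of 50 reads (4.75% of all genes) and in 1 of 32 (Timm44) by a chi-square test (2.93%), against 0. With fewer isoforms counted, the main isoform share was higher by more than the SD of the libraries in 27 of 32 genes over annotated transcripts only, and in 22 of 32 without incomplete matches and genomic models, and it was lower in 0. New spliced isoforms numbered 15 in both libraries at a minimum of 2 reads and 0 at 10. Leaving out either library, annotated matches were 89.8 to 91.3%, incomplete matches 4.49 to 4.69%, new combinations 0.824 to 1.26%, new splice sites 1.71 to 1.84% and genomic models 1.54 to 2.53%. Without Tomm40, incomplete matches were 4.86%. The cause of these changes was not tested. Depth limits the least abundant genes: Tomm20l rests on 11 and 5 reads.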

Other observations

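Several import genes lie head to head or tail to tail with expressed neighbours on the other strand. Timm29 overlaps Yipf2 by 107 bases, and Yipf2 had 90 reads in replicate 1 and 30 in replicate 2. Timm10b overlaps Arfip2 by 361 bases (85 and 79 reads), and Grpel1 overlaps Tada2b by 411 bases (74 and 64 reads). Timm9 and Tomm20l, both import genes, share 49 bases on opposite strands, with 36 and 30 reads for Timm9 and 11 and 5 for Tomm20l.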
